A study of Rousettus aegyptiacus with 32 samples.

Results

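Broad stretches of open chromatin that ranked high in every sampled brain region of the Egyptian fruit bat (Rousettus aegyptiacus), and in none of the sampled peripheral tissues, were described here. There were 39 of them, among 17617 regions that ranked high in all 14 brain libraries and 116727 regions that did so in at least 1 brain library. ATAC-seq had been done on bulk tissue of 2 adult males (bats 1 and 3), in a study of vocal learning and evolution. The brain libraries were cerebellum (2 libraries), cortex (8 libraries: secondary auditory cortex or 2A, the orofacial and wing areas of primary motor cortex or ofM1 and wM1, and premotor cortex or PreM) and striatum (4 libraries: caudate and putamen). The peripheral libraries were liver, pectoralis muscle and testis (2 each), and no treatment or genotype difference is labelled. Each tissue had 1 library per animal, so the 8 cortex and 4 striatum libraries came from the same pair of animals, and p-values over libraries measure the spread between samples of these 2 bats.

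ATAC-seq uses a transposase that inserts into DNA wherever chromatin is open, so that reads pile up at promoters, enhancers and other regulatory elements. A peak caller marks each pile-up as an interval and its highest points as summits. A wide interval can hold several elements side by side, each with its own summit. Open chromatin at promoters is often shared between tissues, while enhancers differ more between cell types. In bulk tissue, fewer cells with an open site and a less open site in each cell cannot be told apart.

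The regions were chosen by measured values. In each library the 50000 intervals with the highest -log10 p were taken as its top intervals, and the top intervals of the 14 brain libraries were merged where they overlapped. A region was kept if it overlapped a top interval in all 14 brain libraries and in none of the 6 peripheral libraries, and if its merged width was 2000 bases or more. The contrast of brain with periphery and the merged widths therefore describe the choice and were not tested. The regions just inside the width limit measured 2015, 2051 and 2056 bases, and those just outside it 1978, 1976 and 1973 bases. The weakest brain ranks just inside were 48623, 49154 and 49428. The best peripheral ranks just inside were 50521, 50612 and 50749, while broad regions just outside had 49969, 49684 and 49605. The regions are numbered 1 to 39 by their weakest rank in any brain library, the strongest first.

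All 14 brain lists reached 300000 rows, and the peripheral lists held 185154 to 300000 rows. The lowest -log10 p listed was 3.3 to 12.3 in the brain libraries and 2 to 2.8 in the peripheral libraries. Where a library is said to list no interval, a weaker one below its limit may have been left out. The weakest top interval had a -log10 p of 16.3 to 196 in the brain libraries and 4.23 to 9.09 in the peripheral libraries, so the same rank stood for weaker evidence in the periphery. Among the peripheral libraries, the top intervals of liver of bat 1 were the weakest and narrowest, with a median fold over background of 2.23 and a median width of 213 bases. No read depth goes with the lists. The ofM1 library of bat 3 stood apart in interval width, with 2724 top intervals of 2000 bases or more, against 412 to 1845 in the other 13 brain libraries. Gene names, promoters, marker genes, motifs and the DNA sequence of the regions were not analysed here, because the interval scaffolds could not be joined to an annotation.

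The 39 regions were 2015 to 3485 bases wide, with a median of 2375, and lay on 14 scaffolds. Scaffold NW_023416307.1 held 6 of them, NW_023416311.1 held 5 and NW_023416285.1 held 4. The closest pair was 3617368 bases apart, and the median distance to the nearest other of the 39 was 11577605 bases (n = 36 with another on the same scaffold). The widest was region 16 (NW_023416311.1:54335792-54339276, 3485 bases), followed by region 5 (NW_023416291.1:18583071-18586376, 3306 bases), region 21 (NW_023416307.1:105348814-105352006, 3193 bases) and region 29 (NW_023416287.1:76842706-76845862, 3157 bases). Of the 529 pan-brain regions without a peripheral top interval, 7.37% were broad, against 16% of the 17088 pan-brain regions with a peripheral top interval. Most broad pan-brain regions were thus also high in peripheral tissue, and 1184 of those 2734 (43.3%) had a top interval in all 6 peripheral libraries.

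Breadth was mostly a property of the merged footprint and not of single libraries, so the regions are broad only in the sense of the rule. The widest top interval per library had a median of 519 to 2466 bases across a region's 14 libraries, and the median over the 39 regions was 1161 bases. A top interval of 2000 bases or more occurred in at least 1 library at 23 of the 39 regions (59%). It occurred in 7 or more libraries at only 2 of them, region 1 with 9 libraries and region 15 with 10 libraries. Among the 2734 broad pan-brain regions with a peripheral top interval, 84.2% had such an interval in at least 1 library and 22.8% in 7 or more libraries, and their median single-library width was 1652 bases. The widest interval came from the ofM1 library of bat 3 at 16 of the 39 regions and from the caudate library of bat 1 at 7. Leaving out the ofM1 library of bat 3 gave 32 regions, which overlapped 30 of the 39.

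The stretch shared by all brain libraries was short. Top intervals of all 14 libraries overlapped on 0 to 998 bases of a region, with a median of 382 bases or 15.1% of its width. At 10 of the 39 regions (25.6%) no base was covered in all 14 libraries, against 2.93% of the 2734 broad regions with a peripheral top interval and 0.816% of the 490 narrower pan-brain regions without one. Such a region had a top interval in every brain library although no single base lay in a top interval of all 14. Intervals ranked past 50000 are not counted here, and at region 5, described below, every brain library listed some interval over the cortical summit. A median of 11.8% of a region's width was covered in 1 library only. The rule used these same intervals, so the figures are descriptive.

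**Figure D1:**
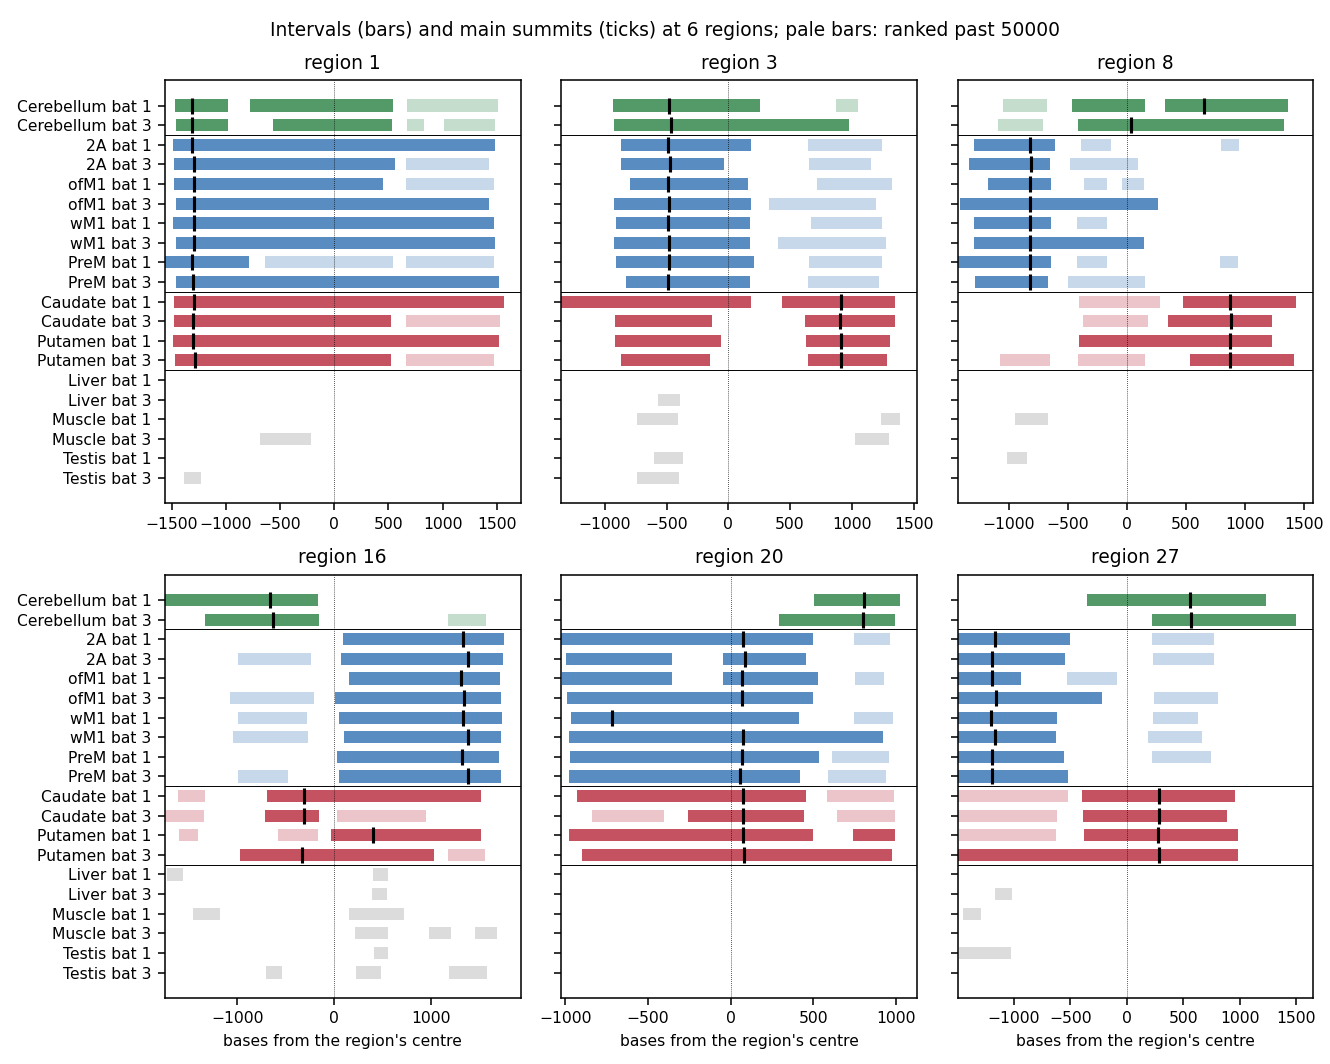
Intervals in the 20 libraries at regions 1, 3, 8, 16, 20 and 27. The x axis is the distance in bases from the region's centre, rows are libraries (cerebellum green, cortex blue, striatum red, periphery grey), full bars are top intervals, pale bars are intervals ranked past 50000 and black ticks are main summits. At region 1 the 14 ticks line up, while at the other 5 regions at least 1 tissue class has its tick elsewhere.

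Region 1 (NW_023416312.1:58821102-58824230) was the strongest by its weakest rank. Its rank was 10225 and 14401 in cerebellum (bats 1 and 3), 7753 to 18360 in cortex with a median of 13602, and 10162, 10373, 8731 and 8329 in striatum (caudate bats 1 and 3, putamen bats 1 and 3). The ranges of the 3 classes overlapped. Its main summit, the summit with the highest -log10 p in the library's strongest top interval, lay at nearly 1 position: -1311 to -1310 bases from the region's centre in cerebellum, -1313 to -1292 in cortex and -1302 to -1287 in striatum. Negative offsets point to lower coordinates. All 14 main summits thus fell within 26 bases near 1 end of a region 3129 bases wide. The bases covered in all 14 libraries numbered 473.

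At other regions the main summit sat in different places in different parts of the brain. Summit position was not itself used by the rule, but the merging of adjoining intervals to 2000 bases or more favours regions with displaced summits, and the measure was chosen after the data were seen, so the counts of displaced summits carry no test. Main summits closer than 150 bases were grouped. At 16 of the 39 regions 1 group held all 14 libraries, and at 11 more it held 12 or 13. The 8 cortex libraries shared the largest group at 33 regions. Both cerebellum libraries lay outside it at 10 regions and all 4 striatum libraries at 7 regions.

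Between cerebellum and cortex, every main summit of the 1 class lay over 150 bases from every main summit of the other at 8 of the 39 regions (20.5%; regions 6, 8, 16, 20, 24, 26, 27 and 38), against 2.53% of all 17617 pan-brain regions. Between cerebellum and striatum this was so at 14 of the 39 (35.9%), against 4.66% of all. Between cortex and striatum it was so at 7 of the 39 (17.9%; regions 3, 5, 7, 8, 16, 27 and 33), against 1.00% of all. In the 2734 broad regions with a peripheral top interval these 3 shares were 7.17%, 12.3% and 2.89%. In the 490 narrower regions without a peripheral top interval they were 5.1%, 9.18% and 3.67%. The 39 regions thus had the highest share of all 3 sets in each comparison. Regions outside the list of named members (24, 26, 27, 33 and 38) are given because the counts include them, after their values were seen.

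Summit positions were close between the animals. The main summits of the same tissue in bats 1 and 3 lay a median of 4 to 13 bases apart over the 39 regions, depending on the tissue. They were within 150 bases at 33 of 39 regions in cerebellum and at 36 to 38 regions in the other 6 brain regions. The median distance averaged 7.71 ± 3.4 bases between bats for the same tissue (SD, n = 7 tissues) and 19.2 ± 32.2 bases for different tissues (SD, n = 42 pairs). That difference did not pass a 2-sided exact permutation test of the tissue labels, chosen after the data were seen (p = 0.145 over 5040 arrangements). By the same exact permutation test it passed in the 490 narrower regions, with 5.93 ± 1.1 bases for the same tissue and 8.14 ± 1.6 for different tissues (p = 0.00615). It also passed in the 2734 broad regions with a peripheral top interval, with 9.14 ± 2.12 and 13.9 ± 3.91 bases (exact permutation p = 0.00595).

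**Figure D2:**
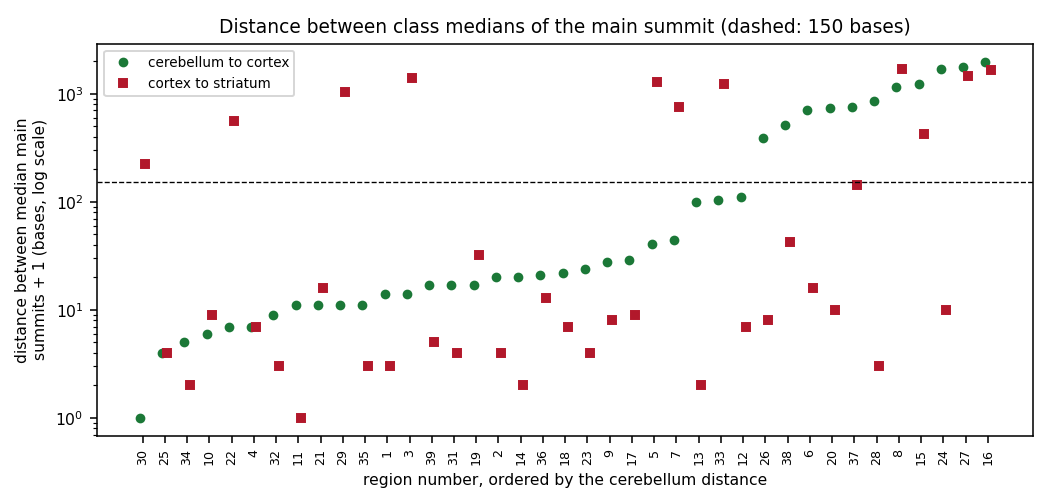
Distance in bases (plus 1, log scale) between the median main summit of cerebellum and that of cortex (green circles), and between those of cortex and striatum (red squares), for each of the 39 regions. The dashed line marks 150 bases, and region 16, at the right, has both distances over 1000 bases (1978 and 1644).

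Region 20 (NW_023416308.1:72115189-72117239, 2051 bases) held the strongest single rank of the 39 regions, in cerebellum. Its rank was 2869 and 4948 in cerebellum, 26937 to 41613 in cortex with a median of 36042, and 22213, 24042, 27685 and 25289 in striatum. The cerebellum libraries stood clear of the other 12, with folds over background of 19.2 and 15.9 against 5.21 to 10.3. The cerebellar main summit lay 804 to 809 bases above the centre, while the striatal one lay at 75 to 81 bases and the cortical one at -719 to 90 bases, in 7 of 8 libraries within the striatal group. At the position of the median cortical summit neither cerebellum library listed an interval of any rank, and the same held at the striatal position. At the cerebellar summit 6 of 8 cortex libraries listed an interval, 1 of them a top interval, and all 4 striatum libraries did, 2 of them top intervals. The cerebellar intervals thus left out the position at which cortex and striatum were strongest, and no base was common to all 14 libraries. None of the 6 peripheral libraries listed any interval there.

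Region 3 (NW_023416295.1:41386003-41388706) kept cerebellum and cortex together and set the striatum apart. Its rank was 7703 and 6881 in cerebellum, 12273 to 23447 in cortex with a median of 16182, and 13686, 11075, 23324 and 25544 in striatum. The main summit lay at -476 to -464 bases in cerebellum, -490 to -472 in cortex and 906 to 916 in striatum, so that the median striatal summit was 1396 bases from the cortical one. All 4 striatum libraries also had a top interval over the cortical position, at ranks 34146 to 43714. At the striatal position all 8 cortex libraries listed an interval, at ranks 50097 to 112619, none of which was a top interval. Both positions were thus listed in both classes, with their order turned round.

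Region 5 (NW_023416291.1:18583071-18586376) showed a sharper split between the same classes. Its rank was 15199 and 15660 in cerebellum, 19166 to 25272 in cortex with a median of 23666, and 21611, 14300, 17036 and 26048 in striatum, so ranks overlapped between cortex and striatum. The main summit lay at -954 to -938 bases in cerebellum, -947 to -884 in cortex and 363 to 372 in striatum. At the striatal summit neither cerebellum library listed an interval, and 1 of 8 cortex libraries did, at rank 141844. At the cortical summit all 4 striatum libraries listed an interval, at ranks 75901 to 154032, and no peripheral library did.

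At region 8 (NW_023416286.1:39482644-39485509) the main summits of all 3 classes differed. Its rank was 31954 and 21837 in cerebellum, 7891 to 26737 in cortex with a median of 19245, and 24475, 22280, 18431 and 27456 in striatum. The main summit lay at 32 and 655 bases in the 2 cerebellum libraries, at -823 to -816 bases in the 8 cortex libraries and at 872 to 879 bases in the 4 striatum libraries. At the striatal summit 2 of 8 cortex libraries listed an interval, at ranks 149717 and 178619. At the cortical summit 1 of 4 striatum libraries did, at rank 129887, and both cerebellum libraries did, at ranks 62997 and 87655. Both cerebellum libraries had a top interval over the striatal summit, at ranks 31954 and 21837, so these 2 classes shared open chromatin there.

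Region 16 (NW_023416311.1:54335792-54339276), the widest, also split by class. Its rank was 13822 and 11552 in cerebellum, 7927 to 22904 in cortex with a median of 14863, and 31563, 22339, 38463 and 39569 in striatum, where only the caudate of bat 3 reached the range of cortex. Its main summit lay at -660 to -636 bases in cerebellum, 1308 to 1375 in cortex and -331 to 394 in striatum. At the cortical summit 1 of 2 cerebellum libraries listed an interval, at rank 153397. Both cerebellum libraries had a top interval over the striatal summit, and 3 of 4 striatum libraries had one over the cerebellar summit. Region 27 (NW_023416311.1:81147066-81150064) had its main summit at 562 to 570 bases in cerebellum, -1200 to -1163 in cortex and 273 to 286 in striatum. Neither cerebellum library listed an interval at the cortical summit of region 27. Over its cerebellar and its striatal summit, both cerebellum libraries and all 4 striatum libraries had a top interval.

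Region 6 (NW_023416307.1:148421229-148423635) moved only in cerebellum. Its main summit lay at 771 to 780 bases there, at 58 to 83 bases in cortex and at 51 to 64 bases in striatum. None of the 8 cortex and none of the 4 striatum libraries listed an interval of any rank at the cerebellar position, while both cerebellum libraries had a top interval at the cortical one, at ranks 27803 and 49180. Its rank was 19902 and 27803 in cerebellum, 7332 to 24695 in cortex with a median of 13406, and 9140, 9747, 11487 and 13513 in striatum. At region 7 (NW_023416308.1:79853368-79855562) the main summit lay at -324 to -320 bases in cerebellum, -375 to -333 in cortex and 377 to 388 in striatum. There all 8 cortex and all 4 striatum libraries had 1 top interval over both positions, so only the stronger summit within it changed, and neither cerebellum library listed an interval at the striatal position. At regions 5 and 8, by contrast, no cortex library had a top interval at the striatal summit and no striatum library had one at the cortical summit.

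Many regions held several recurrent summits. Summit groups found in 7 or more brain libraries, counting all summits of top intervals, numbered at least 2 at 33 of the 39 regions and at least 3 at 18. Only 6 regions had exactly 1. Region 1 had 8 such groups, although its main summit was shared by all 14 libraries. In 20 of the 39 regions every library had 1 top interval, and in 19 at least 1 library had 2 or more separate ones.

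**Figure D3:**
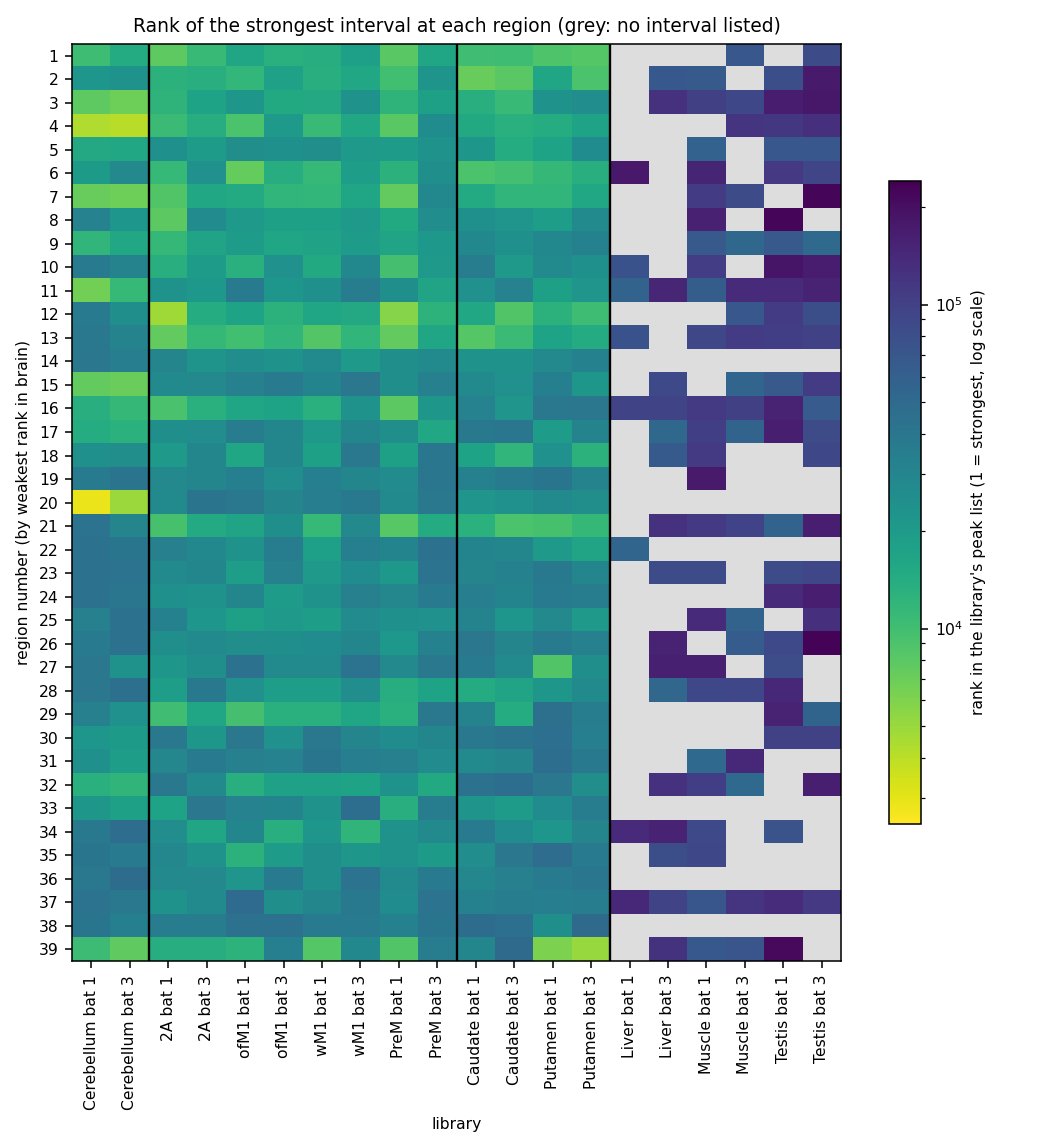
Rank of the strongest interval at each of the 39 regions (rows, by weakest brain rank) in each of the 20 libraries (columns: cerebellum, cortex, striatum, periphery), on a log colour scale where yellow is the strongest and grey means no interval listed. The 2 cerebellum columns hold both the best rank, 2869 at region 20, and the weakest brain rank of 16 regions.

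Ranks within brain were next compared between classes, a contrast that the rule did not use, although it bounds every brain rank at 50000. A rank score, log2 of 50000 divided by the rank, was used for this, so that 0 is rank 50000 and 1 unit is a 2-fold ratio of ranks. The median rank over the 39 regions was 31954 and 23824 in the cerebellum libraries of bats 1 and 3, 18551 to 26676 in the 8 cortex libraries with a median of 22896, and 27113, 23678, 24689 and 26048 in the 4 striatum libraries. The classes overlapped. The median score averaged 0.858 ± 0.3 in cerebellum (SD, n = 2), 1.14 ± 0.17 in cortex (SD, n = 8) and 0.981 ± 0.0867 in striatum (SD, n = 4). Cerebellum differed from cortex and striatum by -0.226, which did not pass a 2-sided exact permutation test (p = 0.143 over 91 arrangements, 0.234 after adjustment over 4 comparisons). Cortex differed from striatum by 0.155, with p = 0.113 by the same exact test over 495 arrangements (0.234 adjusted). The smallest p the design allows is 0.011 for cerebellum and 0.00202 for cortex against striatum.

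The values differed between the animals. Cerebellum minus cortex and striatum was -0.505 in bat 1 and 0.0533 in bat 3, and cortex minus striatum was 0.301 in bat 1 and 0.01 in bat 3. The difference between the bats gave p = 0.0816 and 0.116 by exact permutation within each bat. The sign for cerebellum also turned to 0.0833 without the ofM1 library of bat 3, with the regions chosen anew. Across the brain libraries the median rank was 18551 to 31954 for the 39 regions, 20410 to 27970 for the 490 narrower regions and 8193 to 12753 for the 2734 broad regions with a peripheral top interval.

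The share of each region covered by top intervals had a median of 43.9% and 47.3% in the cerebellum libraries, 41.3% to 82.1% in cortex and 52.2% to 59.8% in striatum. The highest cortex value was that of ofM1 of bat 3. Class means were 45.6 ± 2.4% in cerebellum (SD, n = 2), 56.2 ± 13.1% in cortex (SD, n = 8) and 55.9 ± 3.29% in striatum (SD, n = 4). Cerebellum differed by -10.5 percentage points from cortex and striatum (exact permutation p = 0.176, 0.234 adjusted). Cortex differed by 0.255 points from striatum (exact permutation p = 0.978, 0.978 adjusted), but by -7.82 points in bat 1 and 8.33 points in bat 3.

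**Figure D4:**
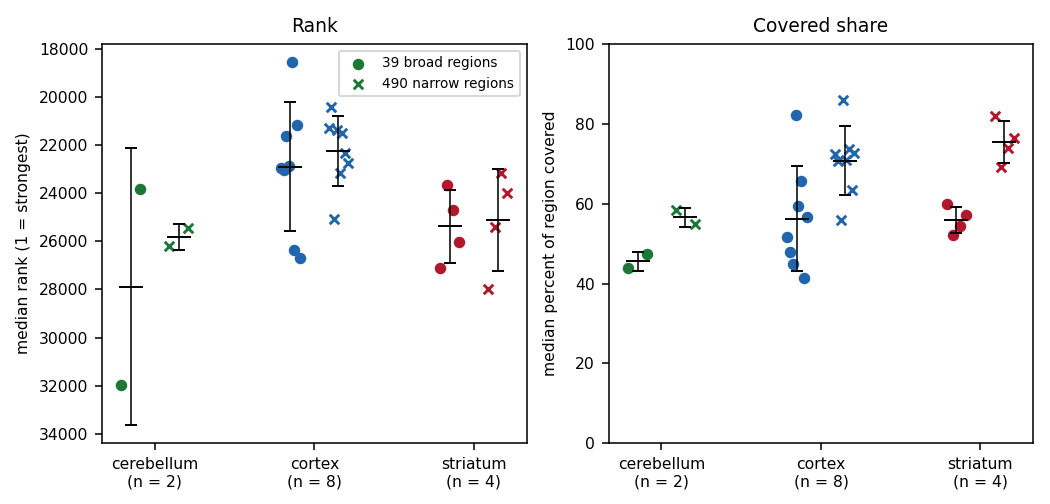
Median rank (left, 1 is strongest, the axis runs downward) and median percent of region covered (right) per library, for the 39 broad regions (circles) and the 490 narrower regions (crosses), by tissue class. Each point is 1 library and the bars are means ± SD. The cerebellum points of the 39 regions lie at ranks 31954 and 23824, on both sides of most striatum points.

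Region by region, differences went both ways in cerebellum. Scores of all 17617 pan-brain regions were fitted with limma, with Benjamini-Hochberg adjustment over all of them and a threshold of 0.05. Relative to cortex and striatum, cerebellum was higher at 11 of the 39 regions (28.2%), against 16.2% of all pan-brain regions, and lower at 6 (15.4%), against 30.3% of all. The regions higher in cerebellum were 3, 4, 7, 9, 11, 15, 17, 20, 30, 31 and 32, and those lower were 2, 12, 13, 21, 28 and 34. The median difference was -0.31 over the 39 regions and -0.36 over all pan-brain regions. With each library's scores centred on its median over all pan-brain regions, an alternative chosen after seeing the data, 13 were higher and 2 lower, against 22.0% and 20.4% of all. With the rank's percentile within its list in place of the log2 score, 10 were higher, against 11.4% of all, and 13 lower (33.3%), against 32.9% of all. The low share of calls below 0 among the 39 was thus not seen on the percentile scale. In the libraries of 1 animal alone, with 1 cerebellum library per fit, fewer of the 22 calls of both comparisons passed. The shares of all pan-brain regions called fell as well, so the loss was not particular to the 39. Every one of the 22 calls that could be fitted kept its direction. Regions 3, 4, 13, 15 and 20 passed in each bat alone. The 11 regions higher in cerebellum were all called again under centring, while only regions 13 and 21 of the lower 6 were.

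Region 20, with the ranks above, led this group with a score difference of 2.94 ± 0.27 (SE, adjusted p = 3.00e-07), and of 3.28 in bat 1 alone and 2.61 in bat 3 alone. Region 15 (NW_023416308.1:60318984-60321582) had ranks of 7530 and 7067 in cerebellum, 24611 to 39438 in cortex with a median of 31759, and 26831, 23678, 33517 and 21502 in striatum. Both cerebellum libraries lay above all 12 others, by 1.97 ± 0.26 (SE, adjusted p = 1.41e-05). Its intervals in cortex were long and weak, covering 65.6% to 98.3% of the region at folds of 4.54 to 5.53. Those in cerebellum were shorter and stronger, covering 39.4% and 60% at folds of 14.2 and 12.5. The cerebellar main summit lay at 914 to 932 bases and the striatal one at -730 to -726 bases, while those of cortex ranged over -730 to 1028 bases.

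Region 4 (NW_023416306.1:98965469-98968129) had ranks of 4329 and 4089 in cerebellum, 7985 to 25896 in cortex with a median of 12393, and 14961, 13310, 14173 and 17125 in striatum. The difference was 1.74 ± 0.35 (SE, adjusted p = 0.000783), again with no overlap. Here the main summit was shared, at 1032 to 1039 bases in cerebellum, 1030 to 1051 in cortex and 1032 to 1037 in striatum. It was therefore a stronger rank at 1 common position, in contrast to region 20. Its median single-library width was 519 bases, the lowest of the 39, and its merged width of 2661 bases came with an interval of 2656 bases in the ofM1 library of bat 3.

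Among the regions lower in cerebellum, region 13 (NW_023416285.1:31030027-31032143) had ranks of 38487 and 31029 in cerebellum, 7508 to 16105 in cortex with a median of 10732, and 8284, 10765, 17093 and 14375 in striatum. Its difference was -1.63 ± 0.32 (SE, adjusted p = 0.000574). Region 21 had ranks of 41943 and 29859 in cerebellum, 8111 to 27828 in cortex with a median of 14636, and 13113, 9175, 9363 and 11437 in striatum, a difference of -1.50 ± 0.38 (SE, adjusted p = 0.0038). Region 12 (NW_023416307.1:97035063-97037722) had ranks of 37010 and 24581 in cerebellum, 4833 to 17131 in cortex with a median of 13389, and 15513, 8694, 12866 and 10313 in striatum. Its difference was -1.40 ± 0.42 (SE, adjusted p = 0.0111), and -1.11 (adjusted p = 0.0555) with centred scores. At all 3 regions the cerebellum libraries ranked below every cortex and striatum library. The folds over background at region 12 were 4.67 and 5.54 in cerebellum, against 20, 24.1, 19.3 and 16.6 in striatum, with a median of 14.1 over the 14 brain libraries. Over all top intervals the median fold per library was also lower in cerebellum, at 7.67 to 8.86, than in striatum, at 9.66 to 12.8.

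The cerebellum libraries lay wholly above the other 12 at 9 of the 39 regions, against 13.5% of all pan-brain regions, and wholly below them at 8, against 27.1% of all. The weakest brain rank was in cerebellum at 16 of the 39 regions, in cortex at 11 and in striatum at 12. These shares were not formed over all pan-brain regions, and the rule bounds these ranks, so the counts are descriptive. Without the 2 cerebellum libraries the rule gave 112 regions, which overlapped 31 of the 39 (79.5%).

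Between cortex and striatum, cortex was higher at 5 of the 39 regions (12.8%; regions 9, 16, 29, 32 and 35), against 18.3% of all pan-brain regions, and lower at 0, against 8.38% of all. The median difference was 0.09 over the 39 and 0.23 over all pan-brain regions. At an unadjusted p under 0.05, 10 of the 39 differed in either direction. The share of all pan-brain regions at that threshold was not formed, so this count has no comparison. With centred scores cortex was higher at 1 region, region 16, against 8.68% of all, and lower at 3, against 15.7% of all, so the split of the calls between the directions depended on the scaling. On the percentile scale cortex was higher at 5, against 17.3% of all, and lower at 1, against 5.39% of all. With the regions chosen anew, lower calls outnumbered higher ones without bat 1 and without cerebellum, and in no other setting. Without bat 1, cortex was higher at 5 (3.7%) and lower at 21 (15.6%) of 135 regions, against 10.1% and 4.92% of all. Without cerebellum it was higher at 14 (12.5%) and lower at 18 (16.1%) of 112, against 16.8% and 9.73% of all. With top lists of 60000 it was higher at 8 (14.5%) and lower at 7 (12.7%) of 55, against 19.8% and 8.75% of all. With at least 50% of a region covered it was higher at 14 (18.2%) and lower at 13 (16.9%) of 77. The shares of all were 15.9% and 9.37% there. Without the ofM1 library of bat 3 it was higher at 3 (9.38%) and lower at 0 of 32, against 17.3% and 8.48% of all. Cortex lay wholly above striatum at 1 region, against 7.72% of all, and wholly below it at 0, against 4.51% of all.

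Region 16 had the largest of these differences, 1.17 ± 0.28 (SE, adjusted p = 0.00637), and 0.88 (adjusted p = 0.0481) with centred scores. As given above, its cortical and striatal main summits were a median of 1644 bases apart, so the ranks compared belong to intervals with different main summits. In 2 of 4 striatum libraries a top interval nevertheless covered the cortical summit, the best at rank 31563. Region 29 had ranks of 32609 and 23824 in cerebellum, 9663 to 38768 in cortex with a median of 13302, and 31427, 14172, 44590 and 34847 in striatum. The cortex and striatum ranges overlapped, and the difference of 0.96 ± 0.34 (SE, adjusted p = 0.0445) was 0.22 (adjusted p = 0.782) in bat 3 alone and 1.71 (adjusted p = 0.0132) in bat 1 alone. Region 32 (NW_023416307.1:51526559-51528852) had ranks of 13200 and 12086 in cerebellum, 13361 to 38794 in cortex with a median of 17640, and 43093, 46221, 39524 and 25079 in striatum. It differed between cortex and striatum by 0.90 ± 0.27 (SE, adjusted p = 0.0225) and between cerebellum and the other classes by 1.12 ± 0.35 (SE, adjusted p = 0.0135).

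Region 9 (NW_023416311.1:45484952-45487361), chosen after its values were seen, was the 1 region where cortex and striatum did not overlap. Its rank was 11973 and 15933 in cerebellum, 11405 to 21037 in cortex with a median of 17032, and 28742, 24204, 28577 and 32508 in striatum, and cortex differed from striatum by 0.73 ± 0.21 (SE, adjusted p = 0.0162). Region 2 (NW_023416286.1:46601004-46603542) ran the other way, and passed the test only with centred scores among the 3 scalings tried. Its rank was 21891 and 23174 in cerebellum, 9868 to 22720 in cortex with a median of 13596, and 7264, 8099, 16338 and 9049 in striatum. The cortex minus striatum difference was -0.56 ± 0.26 (SE, limma adjusted p = 0.108). It was -0.85 (adjusted p = 0.0298) with centred scores, and the adjusted p was 0.174 on the percentile scale. Regions 18 and 20 also ran this way. Region 18 passed with centred scores only (-0.94, limma adjusted p = 0.0251, and 0.0897 on the log2 score). Region 20 passed with centred scores (-0.74, limma adjusted p = 0.026) and on the percentile scale (0.0263), but not on the log2 score (-0.46, 0.115).

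**Figure D5:**
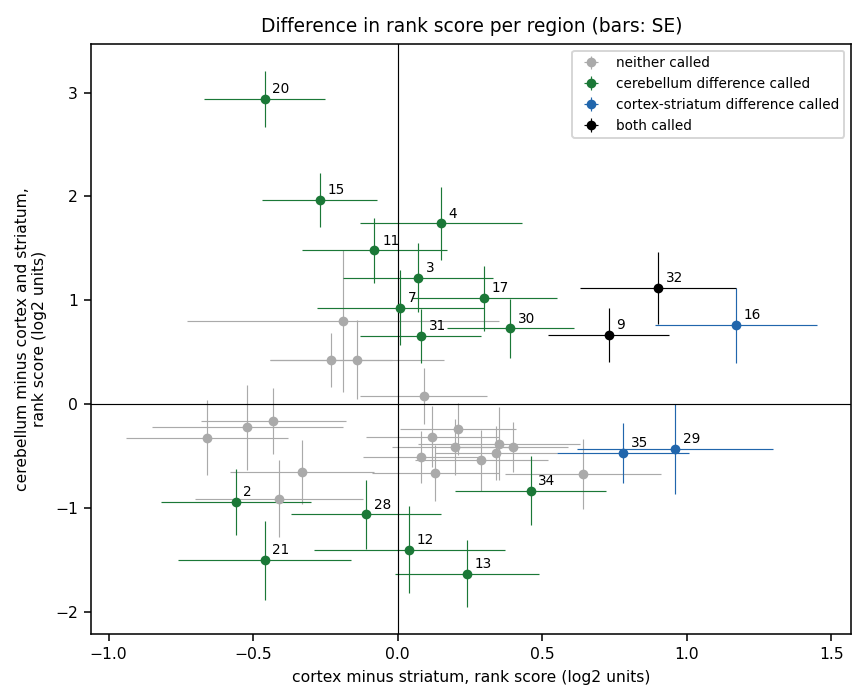
Difference in rank score between cortex and striatum (x axis, log2 units) and between cerebellum and the other 2 classes (y axis, log2 units) for each of the 39 regions, with bars for the SE and colours for calls at an adjusted p under 0.05. Region 20 stands highest, at 2.94 on the y axis, and region 16 farthest right, at 1.17 on the x axis.

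Outside the brain the regions were not blank. Since the rule used these libraries, the following is a description. Intervals ranked past 50000 overlapped 8 and 17 of the 39 regions in liver of bats 1 and 3, 25 and 19 in muscle, and 25 in testis of each bat. The median fold over background was 4.88 to 14.1 per region over the 14 brain libraries, and 1.96 to 2.75 per peripheral library over the intervals listed there. The share of regions with any interval in bats 1 and 3 was 20.5% and 43.6% in liver for the 39 broad regions, against 14.5% and 20.8% for the 490 narrower regions. In muscle it was 64.1% and 48.7% for the broad regions, against 48% and 37.6% for the narrower ones. In testis it was 64.1% in both bats for the broad regions, against 36.9% and 29.4% for the narrower ones. The difference in width between the 2 sets was not adjusted for.

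No interval of any rank was listed in the 6 peripheral libraries at 5 of the 39 regions (14, 20, 33, 36 and 38), and an interval was listed in all 6 at 3 regions (11, 16 and 37). Among these, region 20 has its ranks given above. Region 16 had peripheral ranks of 93932 and 94279 in liver, 111391 and 101236 in muscle, and 152053 and 64590 in testis, all far behind its weakest brain rank of 39569. Region 15 came nearer, with 53786 in muscle of bat 3 and 66962 in testis of bat 1. For region 8 only muscle of bat 1 and testis of bat 1 listed an interval, at ranks 158292 and 227187. The striatal summit positions of regions 3, 8 and 27 carried no interval in any of the 6 peripheral libraries, while the cortical position of region 3 carried one in 4 of them, at ranks 100988 to 177897.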

How the data were processed

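ATAC-seq peak lists of 20 libraries (10 tissues of bats 1 and 3) were used. Nuclei came from cryopreserved bulk tissue, per the labels' protocols. The submitters' processing notes list Bowtie2, MACS2 and Salmon 1.5.2, with no role stated. Settings and coordinate build: not given in the sources used here. The authors deposited 1 list per library, so peaks were not called on pooled animals, with each row's fold over background (a ratio), its -log10 p and -log10 q, and the offset of its summit. These values are the authors' own and were used to rank and describe peaks within a list. Of the 20 deposited lists, 15 end at 300000 rows. Depth is unknown, so no counting intervals are given.

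Rows with the same interval were collapsed, with the highest -log10 p kept. Overlap was at least 1 base, and coordinates count from 1. Main summits were grouped at 150 bases. Class differences over the 39 regions were tested on per-library medians with 2-sided exact permutation tests, adjusted by Benjamini-Hochberg over 4 comparisons, and region by region with limma 3.58.1 (R 4.3.3) on rank scores of all 17617 pan-brain regions, adjusted over all of them at a threshold of 0.05. The limma step was tested on simulated scores. Python 3.11.15 and scipy 1.17.1 were used.

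The 39 regions, the comparisons and the alternatives were chosen with earlier results of these data known. The summit measures, centring and removal of ofM1 of bat 3 were chosen after the data were seen. Regions were named by rule: the 8 with the best weakest rank, the 4 widest, and the 3 largest called differences in each direction of each comparison, which gave 16. The planned tests at transcription start sites, the gene lists and the cell type markers were not run, because the gene table used here gives no scaffold for its genes. RNA-seq files were not used.

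Same-numbered libraries come from the same animal, per the labels, so the numbers pair the libraries. The bat 3 minus bat 1 differences of pairs of tissues were also correlated across the 17617 regions. There r was -0.201 to 0.633, its median was 0.158, and 12 of 21 pairs exceeded 0.1. Processing that went with the number would also raise r, so r cannot test the pairing. Alternatives were other top lists, ranking by fold, cover, width, each animal or single libraries left out, percentiles, and the animal as a block.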

Additional observations from a re-analysis of the deposited data

Results flagged for a closer look

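A library far from the others of its class was looked for in 40 groups, each of the 8 cortex or the 4 striatum libraries. The groups held the ranks at the 16 named regions and also summary values per library. Of the 40 groups, 2 held such a library, and chance gives about 1 in 20 such groups. At region 8 the rank was 7891 in secondary auditory cortex of bat 1, stronger than in the other 7 cortex libraries, while the same area of bat 3 had rank 26737, the weakest of cortex. At region 29 the rank was 38768 in premotor cortex of bat 3, weaker than in the other 7 cortex libraries, which ranked 9663 to 16143. The cause of either value was not tested.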

How the results depend on the processing

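The list depends on its limits, which replace many regions. Ranking by fold gave 24 regions, which overlapped 14 of the 39. Requiring at least 50% cover gave 77, which overlapped 2. Top lists of 40000 and 60000 gave 33 and 55, which overlapped 17 and 27. A width of 1500 bases gave 136, 3000 bases gave 5, and leaving out cerebellum gave 112. With libraries left out there were 32 (without ofM1 of bat 3, 30 of the 39 overlapped) to 135 (without bat 1, 33 overlapped), and without bat 3 there were 57 (22 overlapped). Regions without any peripheral peak, 5 as reported, numbered 1 and 10 with top lists of 40000 and 60000, 0 under 50% cover, 14 and 0 at widths of 1500 and 3000, 8 without cerebellum, and 4 to 19 with libraries left out.

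The median score difference of cerebellum, -0.226, turned to 0.311 with top lists of 40000, 0.0208 under 50% cover, 0.0387 at 3000 bases and 0.0833 without ofM1 of bat 3, passed the test at 1500 bases (-0.254, exact permutation, adjusted p = 0.044), and ran from -0.227 to 0.0833 with libraries left out. Cortex minus striatum, 0.155, was -0.0686 without cerebellum and -0.106 to 0.175 with libraries left out. For covered share, cortex minus striatum, 0.255 points, was -3.09 under 50% cover, -0.196 at 3000 bases, -3.34 without ofM1 of bat 3, and -11.8 to 8.86 with libraries left out. Covered share of cerebellum, -10.5 points, stayed below 0 in every alternative run, from -21.2 to -2.92, and passed the test in none.

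Calls between cortex and striatum, 5 as reported, numbered 15 with top lists of 60000, 27 under 50% cover and 32 without cerebellum. They numbered 33 and 2 at widths of 1500 and 3000, and 3 to 26 with libraries left out. The sets hold 5 to 136 regions, so these counts cannot be compared without their shares. Shares for top lists of 60000, 50% cover and the set without cerebellum are given above. At 1500 bases cortex was higher at 16.2% and lower at 8.09%, against 18.3% and 8.38% of all pan-brain regions. At 3000 bases it was higher at 40% and lower at 0 of 5, with the same shares of all. Calls of cerebellum, 17 as reported, numbered 4 by fold and 37 under 50% cover. They numbered 53 and 1 at 1500 and 3000 bases, and 11 to 25 with libraries left out. By fold, cerebellum was higher at 8.33% and lower at 8.33% of 24, against 18.3% and 15.2% of all. Under 50% cover it was higher at 27.3% and lower at 20.8% of 77, against 16.9% and 30.3% of all. At 1500 bases it was higher at 16.9% and lower at 22.1% of 136, against 16.2% and 30.3% of all. At 3000 bases it was higher at 0 and lower at 20% of 5, with the same shares of all. Without bat 1 it was higher at 8.89% and lower at 9.63% of 135, against 10.2% and 19.5% of all. By fold, region 35 turned to -0.01 between cortex and striatum and region 11 to -0.12 for cerebellum. The alternatives on width, cover, ranking and libraries also change which regions enter, and the cause of each change was not tested. The animal as a replicate block kept all 22 calls, with 18 for cerebellum and 5 for cortex against striatum. Cerebellum was then higher at 28.2% and lower at 17.9% of the 39, against 17.5% and 33.4% of all. Cortex was higher than striatum at 12.8% and lower at 0, against 21.8% and 9.8% of all. Both median score differences had an adjusted p of 0.218 by exact permutation with this block. Tests at start sites and their other window were not run.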
